A study of Mus musculus with 2 samples.

Results

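The genes described here are the Eph receptors, ephrins, semaphorins, plexins and neuropilins, 5 groups of cell-surface and secreted proteins that guide growing axons. They were chosen by symbol from the protein-coding genes of the mouse annotation, which gave 53 members among 21474 protein-coding genes and 43346 mouse genes in all. The members fall into 14 Eph receptors, 8 ephrins, 20 semaphorins, 9 plexins and 2 neuropilins, and all 53 were matched in the expression files. The symbol set the choice and no measured value did, though earlier results of these data were known.

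Expression was measured by RNA-seq in Purkinje cells, the inhibitory neurons whose axons are the sole output of the cerebellar cortex. The 2 libraries form a single group. Each was made from 50 laser-captured cells of 8-month-old male wild-type mice, given as C57Bl6 in the description and as strain B6NCrl in the source label, with no other allele and no treatment named. They carry biological replicate numbers 1 and 2 and are called pool 1 and pool 2. Their biosamples differ but the donor identifier is the same, so separate animals are not established, and a difference between the pools could be technical. Conditions were not contrasted, so no p-value is given.

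Eph receptors are receptor tyrosine kinases that bind ephrins on neighbouring cells, and signals can run into both cells. A-type ephrins are held to the membrane by a lipid anchor and B-type ephrins span it. Semaphorins bind plexins, whose intracellular part acts on small GTPases. The secreted class 3 semaphorins mostly need a neuropilin as co-receptor. In the developing cerebellum, Sema3a and Sema7a from Purkinje cells are known to act on the climbing fibre synapses they receive, and Eph receptors and ephrins are known for banded patterns across the cortex.

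The libraries held 23830685 expected counts (estimated reads per gene) in pool 1 and 27907662 in pool 2. ERCC spike-in RNAs took 1.40% and 0.940% of them. All 8 Purkinje cell markers were detected, with a summed level of 21650 TPM in pool 1 and 20990 in pool 2, where TPM is the share of transcripts in the library, corrected for their length. Other cell types were present too: all 9 markers of Bergmann glia and astrocytes (2423 and 2023 TPM summed), 6 of 7 granule cell markers (116 and 149), all 8 of oligodendrocytes (225 and 218), 5 of 5 of molecular layer interneurons (47.5 and 66.2), 1 of 3 of Golgi cells (8.04 and 8.82), 3 of 6 of microglia (15.9 and 20.9) and 7 of 10 of endothelium and pericytes (111 and 139). None of the 4 oligodendrocyte precursor markers was detected. Blood markers had 651 and 2274 TPM. The part these cells have in the level of any guidance gene was not tested, and fewer cells of a type cannot be told apart from less RNA per cell.

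The guidance genes were a small part of the RNA. Their counts summed to 15701 in pool 1 and 15487 in pool 2, which is 0.0668% and 0.0560% of the counts on mouse genes, and their summed levels were 181 and 145 TPM. A gene was called detected where both pools reached a TPM of 1. By that threshold 24 of the 53 members were detected, beside 51.7% of all protein-coding genes. Both pools reached a TPM of 10 in 4 members (Sema7a, Sema6d, Plxnb2 and Efna5), beside 26.8% of protein-coding genes. Another 2 members passed 1 TPM in pool 1 alone (Sema5a and Nrp1), 3 passed it in pool 2 alone (Ephb2, Efna1 and Sema6a), and 24 were under it in both.

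**Figure D1:**
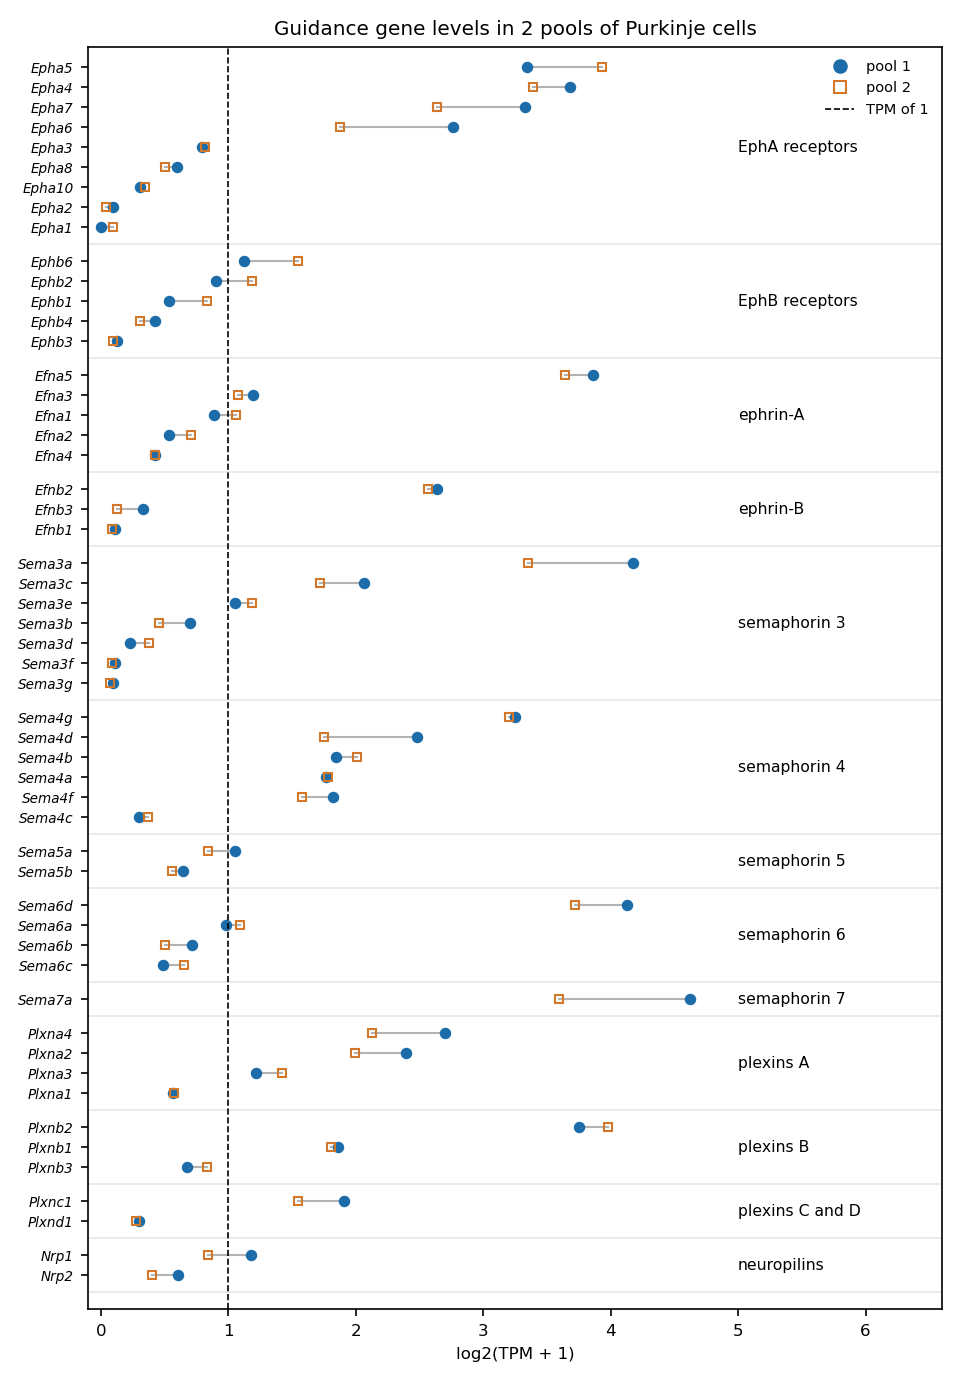
Level of each of the 53 guidance genes in pool 1 (filled circles) and pool 2 (open squares) as log2(TPM + 1), with a dashed line at a TPM of 1 and the members of each class ordered by mean TPM. In most classes 1 or a few members stand to the right of the line, and 24 members lie left of it in both pools.

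Semaphorins carried the largest summed level of the 5 groups, 72.6 ± 20.1 TPM (SD, n = 2 pools), and 10 of 20 were detected. Eph receptors summed to 38.9 ± 1.99 TPM with 5 of 14 detected. Plexins summed to 29.4 ± 1.13 TPM with 6 of 9 detected, and ephrins to 20.9 ± 1.64 TPM with 3 of 8 detected. Neuropilins had 1.44 ± 0.474 TPM, with neither gene detected in both pools. From complete coding transcripts alone, plexins had 13.97 TPM in pool 1 and 10.71 in pool 2 with 4 detected, below the ephrins, which stayed at 22.05 and 19.73.

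Among the EphA receptors, 4 of 9 were detected and the other 5 lay under a TPM of 1 in both pools. Epha5 (chromosome 5, 84054761 to 84417382) had 9.15 TPM in pool 1 from 697 counts and 14.26 in pool 2 from 1537 counts. Epha4 (chromosome 1, 77367185 to 77515088), which binds ephrins of both types, had 11.8 and 9.50 TPM from 1103 and 1129 counts. The pools put these receptors in opposite order, with Epha4 first in pool 1 and Epha5 first in pool 2. Epha7 (chromosome 4, 28813131 to 28967499) had 9.07 and 5.22 TPM, and Epha6 (chromosome 16, 59653483 to 60605531) had 5.80 and 2.67 TPM. Both were higher in pool 1 by TPM. On spike-in totals Epha6 still was, while Epha7 was only slightly higher in pool 1. The 95% counting intervals of Epha6 did not overlap (5.15 to 6.51 and 2.28 to 3.10 TPM). The remaining EphA receptors were Epha3 (0.73 and 0.76 TPM from 81 and 107 counts), Epha8 (0.51 and 0.42 TPM), Epha10 (0.24 and 0.27 TPM), which is thought to lack kinase activity, Epha2 (0.07 and 0.03 TPM) and Epha1. Epha1 had 0 counts in pool 1, where 3 counts would be 0.0476 TPM, and 5.26 counts in pool 2 (0.07 TPM).

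The EphB receptors were low as a class, at 3.62 ± 0.969 TPM in sum. Ephb6, a receptor without kinase activity, was the only one detected in both pools, at 1.18 and 1.93 TPM from 24 and 49 counts. Ephb2 had 0.87 TPM in pool 1 (95% counting interval 0.685 to 1.09) and 1.28 in pool 2 (1.07 to 1.52), on either side of the threshold with overlapping intervals. Ephb1 had 0.45 and 0.78 TPM, Ephb4 had 0.34 and 0.24, and Ephb3 had 0.09 and 0.07 from 6 counts in each pool. By counts, which are not corrected for length, Ephb2 led the class with 44.5% of it. The Ephb6 transcript with the highest share, Ephb6-203, is 459 nt long and has no complete coding sequence.

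Each ephrin class was carried by 1 gene. Efna5 (chromosome 17, 62604184 to 62881317), an A-type ephrin, had 13.57 and 11.48 TPM from 1052 and 1136 counts, and took 80.3 ± 2.74% of its class. Efnb2 (chromosome 8, 8617434 to 8661242), a B-type ephrin, had 5.21 and 4.93 TPM from 437 and 524 counts, and took 95.5 ± 2.24%. Both genes were slightly higher in pool 1 by TPM, and higher in pool 2 when scaled to the spike-ins. Efna3 was detected at 1.29 and 1.11 TPM, and Efna1 stood at the threshold with 0.85 and 1.09 TPM from 23 and 38 counts. Efna2 had 0.45 and 0.63 TPM, Efna4 had 0.34 in each pool, Efnb3 had 0.26 and 0.09, and Efnb1 had 0.08 and 0.06 from 5 counts in each.

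The semaphorins held the highest member of all 53. Sema7a (chromosome 9, 57940112 to 57962865), a lipid-anchored semaphorin that binds plexin C1 and beta-1 integrin, had 23.6 TPM in pool 1 from 1497 counts and 11.1 in pool 2 from 890 counts. Its mean of 17.3 ± 8.87 TPM stood above 78.6% of protein-coding genes. Among members at a mean TPM of at least 1, only its pools differed by 2 times or more on the TPM + 1 scale. Without the added 1, Epha6 did so too, with 2.17 times the TPM in pool 1, against 2.13 times for Sema7a. Sema6d (chromosome 2, 124089969 to 124667770), a transmembrane semaphorin, had 16.5 and 12.15 TPM from 1836 and 1701 counts, a mean of 14.3 ± 3.08. Sema3a (chromosome 5, 13125414 to 13602565), the secreted semaphorin best known for repelling axons, had 17.0 and 9.19 TPM from 1972 and 1348 counts. By TPM all 3 were higher in pool 1, and on spike-in totals Sema7a and Sema3a still were, while Sema6d was higher in pool 2.

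Class 3 held 3 detected members of 7. Besides Sema3a, which took 72.3 ± 6.15% of the class, these were Sema3c (3.19 and 2.29 TPM) and Sema3e (1.07 and 1.27 TPM). Sema3b had 0.62 and 0.37 TPM and Sema3d 0.17 and 0.30 TPM. Sema3f (0.08 and 0.06 TPM) and Sema3g (0.07 and 0.05 TPM) had under 10 counts in each pool, so their levels are close to what 3 counts would give.

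In class 4, 5 of 6 transmembrane members were detected, more than in any other semaphorin class. Sema4g (chromosome 19, 44989101 to 45003397) had 8.49 and 8.21 TPM from 716 and 877 counts, and its SD of 0.198 TPM was small beside that of Sema7a. Sema4d, a ligand of plexin B1, had 4.57 and 2.37 TPM, but its counts of 156 and 172 gave an almost equal share of each library. Sema4b had 2.60 and 3.02 TPM, Sema4a 2.40 and 2.44, and Sema4f 2.53 and 1.98. Sema4c, a ligand of plexin B2, was under the threshold at 0.23 and 0.29 TPM.

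In class 5, Sema5a lay at the threshold (1.07 and 0.79 TPM from 228 and 212 counts) and Sema5b under it (0.56 and 0.47 TPM from 47 counts in each pool). In class 6, Sema6d took 87.1 ± 2.80%. Sema6a, the ligand of plexins A2 and A4, had 0.98 and 1.13 TPM from 110 and 132 counts. Sema6b had 0.64 and 0.42 TPM and Sema6c 0.40 and 0.57 TPM.

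**Figure D2:**
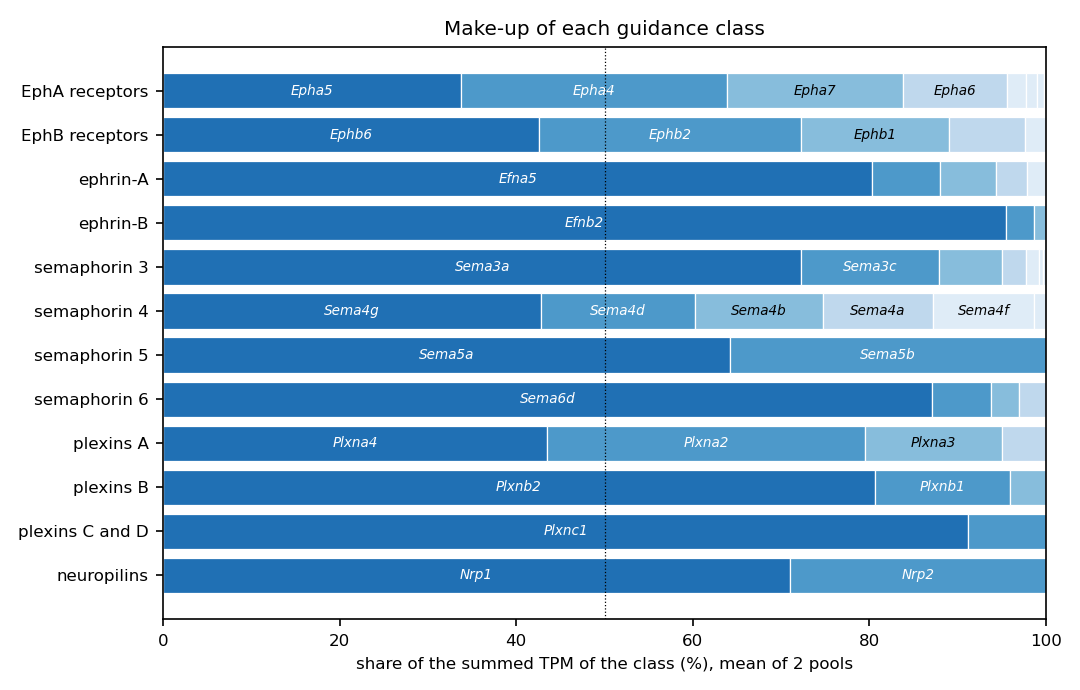
What each member contributes to the total TPM of its class, as the mean of the 2 pools in percent, for the 12 classes with 2 or more members, and a dotted line at 50%. In 8 of the 12 classes the leading member holds over 50% of the sum, and in the EphA, EphB, semaphorin 4 and plexin A classes it holds less. From complete coding transcripts Sema4g and Plxna4 also pass 50%, and Plxnb2 has 25.9% of the plexin B class.

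Of the plexins, Plxnb2 had the highest gene-level value. Plxnb2 (chromosome 15, 89155549 to 89180788) had 12.45 TPM in pool 1 and 14.73 in pool 2, yet only 284 and 380 counts, a level that rests on short transcripts described further on. Plxna4 (chromosome 6, 32144268 to 32588192), a receptor for Sema3a and class 6 semaphorins, had 5.51 and 3.36 TPM from 1397 and 1082 counts, the most counts of any plexin. Plxna2 had 4.26 and 2.99 TPM from 485 and 497 counts, and Plxna3 had 1.33 and 1.68 TPM. Plxna4 led its class with 43.5 ± 5.76%, ahead of Plxna2 with 35.9%. Plxnb1 had 2.63 and 2.49 TPM from 431 and 532 counts, and Plxnc1, the receptor of Sema7a, had 2.76 and 1.92 TPM from 381 and 336 counts. The members under the threshold were Plxna1 (0.48 and 0.49 TPM), Plxnb3 (0.60 and 0.78 TPM) and Plxnd1, the receptor of Sema3e (0.23 and 0.21 TPM).

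Both neuropilins were low. Nrp1, the co-receptor of Sema3a, had 1.26 TPM in pool 1 (95% counting interval 1.06 to 1.48) and 0.79 in pool 2 (0.652 to 0.948), so it passed the threshold in pool 1 alone. Nrp2, the co-receptor of Sema3f, had 0.52 and 0.32 TPM from 57 and 48 counts. On spike-in totals without a pseudocount, the log2 ratio of Nrp1 was near 0. Endothelial cells also express neuropilins, and their part in these levels was not tested.

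Set beside their textbook partners, several ligands and receptors stood at unlike levels. Sema3a had a mean of 13.1 ± 5.55 TPM, against 4.43 for its receptor Plxna4 and 1.02 for Nrp1. Sema7a exceeded Plxnc1, at 17.3 against 2.34 TPM, and its other receptor Itgb1 had 15.02 ± 0.778 TPM. Sema6d at 14.3 TPM stood beside 0.485 for Plxna1 and 4.43 for Plxna4, named above as a receptor for class 6 semaphorins. In the other direction, Sema6a at 1.05 TPM stood beside 3.62 for Plxna2 and 4.43 for Plxna4. Sema4d and Plxnb1 were close, at 3.47 and 2.56 TPM. Sema3e at 1.17 TPM stood beside Plxnd1, which was under the threshold at 0.22. Sema3f was itself under the threshold at 0.07 TPM, beside 0.42 for Nrp2 and 1.5 for Plxna3. Sema5a had 0.930 TPM, with Plxna1 under the threshold and Plxna3 above it at a mean of 1.5. Plxnb2 at 13.6 TPM stood beside 0.260 for Sema4c, the only ligand set beside it here. Some of these levels include transcripts without a complete coding sequence. From complete coding transcripts alone, Sema4d had 1.48 TPM and Plxnb1 2.52, which turns their order, and Plxnb2 had 0.890 beside 0.090 for Sema4c. On that count Plxna3 had 0.025 TPM and was not detected, and Plxna2 had 1.41 beside 0.680 for Sema6a. For ephrins and their receptors, A-type ephrins summed to 15.6 ± 1.31 TPM against 35.3 ± 2.96 for EphA receptors. Efnb2 at 5.07 TPM exceeded the EphB receptors together, but not Epha4, which also binds B-type ephrins and had a mean of 10.7 TPM. These values describe RNA in the same pools and not contact between cells.

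The transcript-level files show which forms of these genes the reads were assigned to. For Epha7, the form with the highest share of TPM was a short one, while by counts a long one led. Epha7-202, with a coding sequence of 610 codons, took 50.1% of the gene's TPM in pool 1 (250.66 counts) and 35.2% in pool 2 (128.46 counts). Epha7-203, with 994 codons, took 29.7% and 23.1% from more counts (348.49 and 198), and Epha7-201, with 998 codons, took 10.2% and 13.7%. Together the long forms took 39.9% in pool 1, less than Epha7-202, and 36.9% in pool 2, slightly more. Truncated forms of Epha7 without the kinase domain are known, and the short transcript Epha7-204 (626 codons) had no counts in either pool. Epha7-202 and Epha7-203 share their first 599 codons and then continue in different exons. The branch point is printed below from the GENCODE transcripts (GRCm38, plus strand, 5′ to 3′), with the last 30 shared coding bases in lower case and the first 35 bases after the branch in capitals. The capitals of Epha7-202 end in its stop codon (exon bases chr4:28946219-28946253), and those of Epha7-203 open the 1187 coding bases that Epha7-202 lacks (from position 28947540 of chromosome 4).
Epha7-202: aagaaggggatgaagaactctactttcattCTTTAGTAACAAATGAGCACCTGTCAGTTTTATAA
Epha7-203: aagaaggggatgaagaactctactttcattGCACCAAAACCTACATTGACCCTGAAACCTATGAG

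In Sema6d the leading forms differed by a coding insert. Sema6d-206 (1073 codons) took 57.9% of the gene in pool 1 and 47.3% in pool 2, and Sema6d-208 (998 codons) took 16.9% and 33.3%. The longer form was first in both pools, with a smaller lead in pool 2. The difference is 225 coding bases, or 75 codons, in 2 exon pieces of 57 and 168 bases (chr2:124660705-124660761 and chr2:124662204-124662371). They are printed in capitals, with 9 coding bases of the shared sequence on each side in lower case (GENCODE transcript, GRCm38, plus strand, 5′ to 3′), since they are what separates the transcripts that carry most of this gene.
Sema6d-206: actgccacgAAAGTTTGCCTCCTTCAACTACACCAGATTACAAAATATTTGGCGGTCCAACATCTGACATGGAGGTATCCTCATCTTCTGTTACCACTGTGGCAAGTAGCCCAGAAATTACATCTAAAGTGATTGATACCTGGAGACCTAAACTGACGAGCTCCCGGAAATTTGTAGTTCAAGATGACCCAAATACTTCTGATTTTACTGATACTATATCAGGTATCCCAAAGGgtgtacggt

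Epha5 was led by Epha5-204 (819 codons), with 48.9% in pool 1 and 68.1% in pool 2. It lacks stretches of 492, 3 and 66 coding bases that the longest form, Epha5-205 (1040 codons), holds, and it ends in another last exon. Epha5-205 took 1.91% and 2.04%. A retained-intron transcript, Epha5-207, took 40.1% and 25.1%. The coding form Epha5-204 had both the higher share and the higher level in pool 2. Counting transcripts with a complete coding sequence alone, Epha5 had 5.37 TPM in pool 1 and 10.49 in pool 2.

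**Figure D3:**
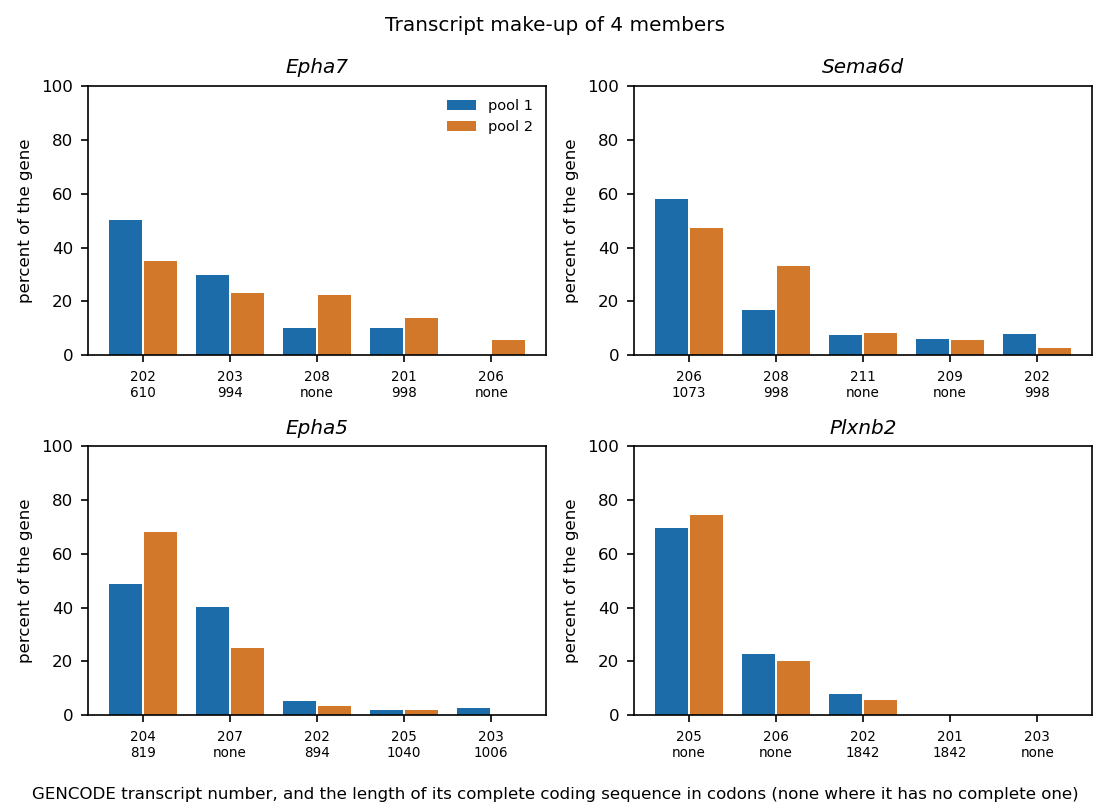
Percent of each gene's TPM assigned to its 5 leading transcripts in pool 1 and pool 2, for Epha7, Sema6d, Epha5 and Plxnb2, with the number of codons under each transcript number (none where it has no complete coding sequence). The 610-codon form leads Epha7 by share of TPM, the 1073-codon form leads Sema6d, and transcripts without a complete coding sequence hold most of Plxnb2.

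The gene-level values of several plexins rest on transcripts that hold no complete coding sequence. Plxnb2-205, a processed transcript of 841 nt, took 69.5% and 74.5% of Plxnb2, and Plxnb2-206, a retained intron of 732 nt, took 22.7% and 20.0%. The coding form Plxnb2-202 (1842 codons) took 7.81% and 5.51%, from 121 and 128 counts. On complete coding transcripts alone, Plxnb2 had 0.890 ± 0.113 TPM in place of 13.6 ± 1.61 and went from rank 3 to rank 23 among the members. Of Plxna3, 1.66% came from complete coding transcripts, and of Plxna2, 38.9%, with the retained intron Plxna2-202 in the lead. Plxna4 has 1 transcript in the files and Plxnb1 and Plxnc1 were led by coding forms, so those levels did not depend on this.

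Across the 24 detected members, the leading transcript had a complete coding sequence in 17, beside 84.4% of all detected protein-coding genes. The median share of TPM from complete coding transcripts was 85.0% in the members and 97.1% in all detected protein-coding genes. With those transcripts alone, 19 members were detected, beside 48.2% of protein-coding genes. The 5 that dropped out were Plxnb2, Plxna3, Sema3c, Sema4a and Ephb6, while Efna5, Sema3a, Sema6d and Sema7a kept a mean of at least 10 TPM. Among the 22 detected members with 2 or more transcripts, 21 had the same leading transcript in both pools, beside 87.5% of such genes. The exception was Sema4d, led by the noncoding Sema4d-213 in pool 1 (9.47 counts) and by the noncoding Sema4d-208 in pool 2 (11.21 counts). Sema6a, below the detection threshold in pool 1, also changed its leading form: Sema6a-201 (1031 codons) had 99.08 counts in pool 1 and 0 in pool 2, and Sema6a-203 (1005 codons) had 0.09 and 99.57.

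**Figure D4:**
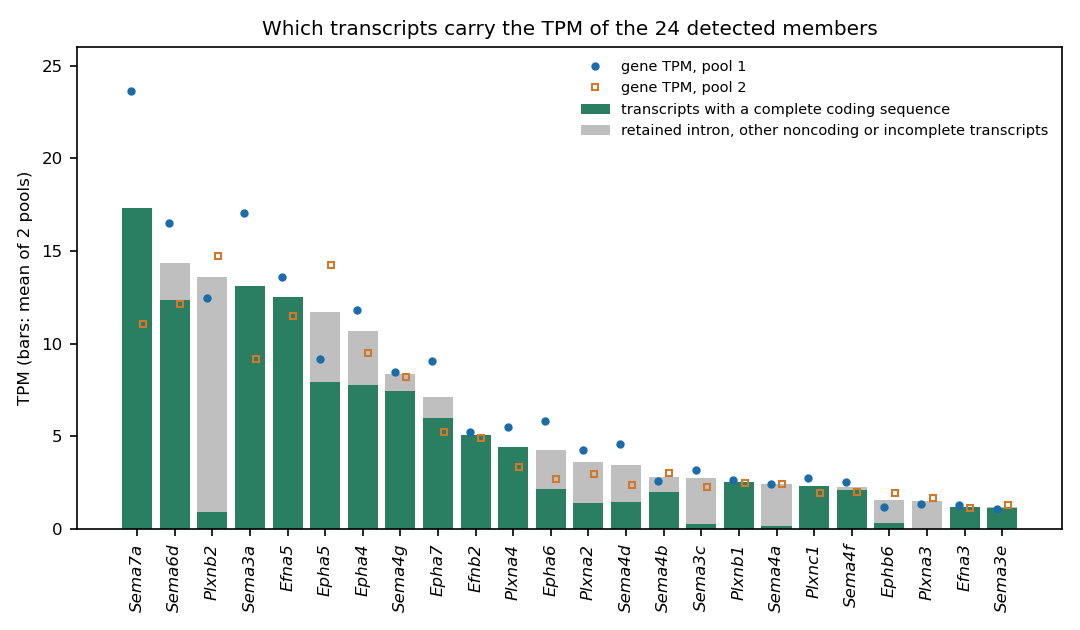
Mean TPM of the 24 detected members, as bars divided into the part from complete coding transcripts (green) and the rest (grey), with the gene's TPM in pool 1 (circles) and pool 2 (squares). Plxnb2 has 13.6 TPM in all and 0.890 from coding transcripts, while Sema7a, Sema3a and Efna5 are made up of them.

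The pools were compared over the 27 members at a mean TPM of at least 1, by the log2 ratio of TPM + 1 in pool 2 over pool 1. This scale understates ratios of low genes. The median was -0.22 over the members and -0.08 over all 11445 protein-coding genes at that level. Of the members, 18 were lower and 9 higher in pool 2, beside 59.3% of protein-coding genes lower. Lower by at least 2 times was 1 member, Sema7a, beside 0.734% of protein-coding genes, and higher by at least 2 times was none, beside 0.638%. On TPM without the added 1, Epha6 was also lower by over 2 times.

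The largest log2 ratios below 0 were those of Sema7a (-1.03), Epha6 (-0.89), Sema3a (-0.82), Sema4d (-0.72), Epha7 (-0.70) and Plxna4 (-0.58). Above 0, Epha5 had 0.59 and Ephb6 0.43. On spike-in totals, here without a pseudocount, these 6 genes were still lower in pool 2. The values were -0.42 for Sema7a, -0.44 for Epha6, -0.21 for Sema3a, -0.27 for Sema4d, -0.12 for Epha7 and -0.04 for Plxna4. With the pseudocount, Plxna4 had 0.10 and Epha7 -0.02. The pseudocount was added before the spike-in scaling, which draws low genes toward the spike-in shift and not toward 0. The counts of Sema4d, 156 and 172, gave an almost equal share of each library. Its complete coding transcripts had 1.51 and 1.45 TPM, while the noncoding Sema4d-213 had 1.67 TPM in pool 1 and 0 in pool 2. As shares of the library counts, Sema7a in pool 2 was 0.505 times its value in pool 1 (95% exact binomial interval 0.465 to 0.549) and Epha5 was 1.87 times (1.71 to 2.05). These intervals cover counting error only, and with 1 library on each side they compare the libraries. Sema4g (-0.04), Efnb2 (-0.07) and Efna5 (-0.22) were close to even.

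Transcript length moved with this ratio. The members' median length was 4317 nt, against 2362 nt for the protein-coding genes. Among genes of at least 4000 nt, the 16 members had a median of -0.26 and all genes -0.25, and from 2000 to 4000 nt the 8 members had -0.30 and all genes -0.12. After the median of its length class was taken from each ratio, the members' median was -0.01, with 14 lower and 13 higher. More than 1 SD of all genes from the median of the length class lay 11 of the 27 members, beside 25.5% of protein-coding genes. Below were Sema7a, Epha6, Sema3a, Sema4d, Epha7 and Plxna4, and above were Epha5, Ephb6, Ephb2, Sema3e and Sema6a. Of these, Sema4d and Sema6a were nearly even in their share of counts. In TPM from complete coding transcripts Sema4d was nearly even, and Sema6a was lower in pool 2 (0.74 and 0.62). Ephb6 rested on 24 and 49 counts.

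**Figure D5:**
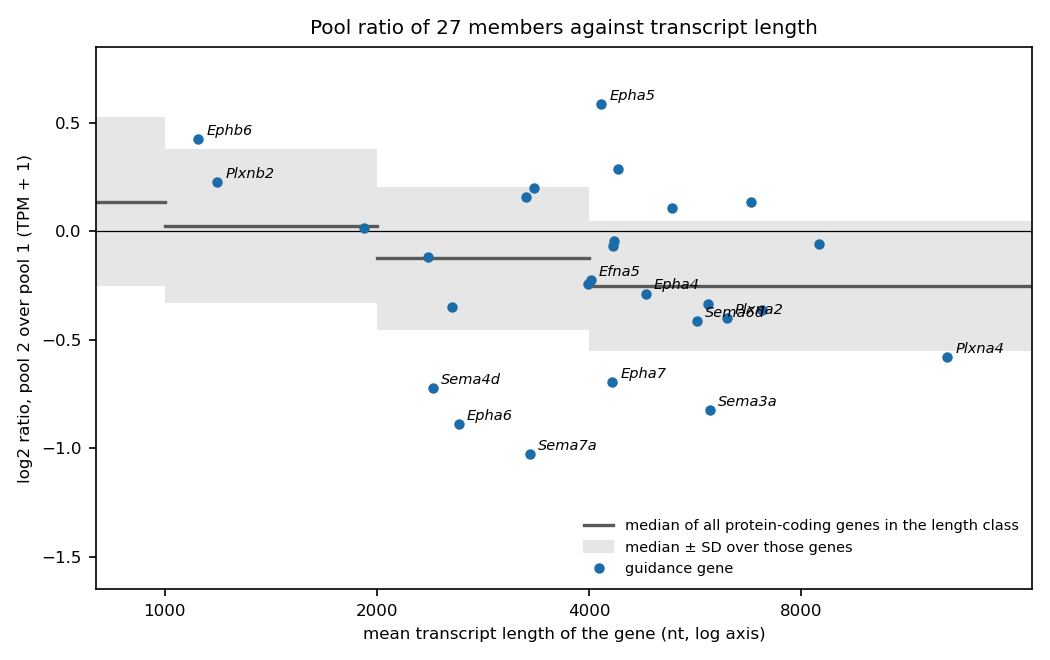
Log2 ratio of TPM + 1, pool 2 over pool 1, against mean transcript length in nt (log axis) for 27 members, with the median (line) and SD (grey) of all protein-coding genes in each length class. The genes' medians go from 0.14 under 1000 nt to -0.25 from 4000 nt, and 11 members lie outside the grey bands, 6 below and 5 above.

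The direction of these ratios also depends on the scale. The scale moved all genes together. Spike-ins had a summed level of 26610 TPM in pool 1 and 16644 in pool 2. Scaled to the spike-in totals, with the pseudocount added before scaling, the median of all protein-coding genes was 0.60 and that of the members 0.45. Of the members, 5 were lower and 22 higher in pool 2. Without the pseudocount the medians were 0.59 and 0.44, with 6 members lower and 21 higher. Aldoc, an enzyme of the banded Purkinje cell subsets, differed between the pools (2409 and 5861 TPM), as did Plcb4, of the opposite subsets (352 and 177 TPM; both chosen after their values were seen). Their relation to the ratios of Eph receptors, ephrins or semaphorins was not tested.

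Of 40 genes listed as effectors of these receptors, 32 passed the detection threshold, beside 51.7% of protein-coding genes. The list median was 6.49 TPM. The highest were the actin-severing protein Cfl1 (654 ± 60.4 TPM), the collapsin response mediator Dpysl2 (262 ± 51.7), the Rac regulator Chn1 (257 ± 35.4), the GTPase Rac1 (126 ± 12.4) and the kinases Cdk5 (92.0 ± 7.5) and Gsk3b (88.3 ± 17.3). Of the 34 effectors at a mean TPM of at least 1, 23 were lower and 11 higher in pool 2 by TPM, beside 59.3% of protein-coding genes lower, with a median log2 ratio of -0.18. The list of effectors includes genes with general roles in the cytoskeleton, so their level is not tied to guidance. It also holds Itgb1, named above as a receptor of Sema7a and so not downstream of it.

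Of 22 measured genes of the netrin, Slit and related guidance families, 8 passed the threshold, again beside 51.7% of protein-coding genes, and the list median was 0.688 TPM. The receptors Unc5c (9.42 ± 1.65 TPM), Robo2 (9.23 ± 2.43) and Unc5d (6.29 ± 0.990) led, followed by Neo1 (3.54 ± 0.375), Ntng1 (3.36 ± 0.552) and Rgmb (2.54 ± 0.622). Unc5c, Robo2 and Unc5d stood between Plxna4 and Epha4 in level. The netrin receptor Dcc had 0.05 and 0.16 TPM, and Slit3 differed between the pools, with 0.66 and 2.85 TPM from 14 and 56 counts.

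Members that lie close together on a chromosome stood at unlike levels in some places and at similar levels in others. On chromosome 5, Sema3d, Sema3a and Sema3e follow each other with 536 and 423 kb between them, and had mean levels of 0.235, 13.1 and 1.17 TPM. On chromosome 3, Efna1, Efna3 and Efna4 lie within 32.8 and 10.4 kb of each other and had 0.970, 1.20 and 0.340 TPM. Ephb2 and Epha8, 93.4 kb apart on chromosome 4, had 1.08 and 0.465 TPM, but 0.425 and 0.465 TPM from complete coding transcripts. Exons of 14 members overlap those of another annotated gene, and the share of all protein-coding genes with such an overlap is not given here. Since the strand setting is not given, reads in such an overlap cannot be assigned with certainty. Epha1 shares 236 exon bases with Zyx on the opposite strand, which had 2.08 and 2.01 TPM, and Epha6 shares 107 with the antisense gene Gm9017 (0.52 and 1.14 TPM).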

How the data were processed

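Per the labels, RNA over 200 nt from 2 laser-captured pools was sequenced with ERCC spike-ins, with a Smart-seq protocol linked for pool 2. The protocol of pool 1, the aligner, the quantifier, their versions and the strand setting are not given in the sources used here. Genes and transcripts were quantified on mm10 with annotation M4, per the accompanying notes. The deposited expected counts are estimated reads, not normalized. TPM, also deposited, was computed by the authors over all entries, spike-ins included, so the spike-in share lowers every gene. The percent of each transcript in its gene is deposited too and was used as it stands.

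Names, coordinates and transcript types came from GENCODE M21 on the same assembly. It named 42462 of 43346 genes, and 1 of 260 member transcripts had no match. A transcript was called complete coding where M21 types it as protein-coding with both ends of the coding sequence present, a choice made after the data were seen. Classes were described by each member's share of summed TPM. Counting intervals are 95% Poisson intervals converted to TPM, or exact binomial intervals for ratios. They hold counting error alone: with no molecular identifiers, reads are not independent molecules. Reads shared by paralogs or overlapping genes were divided by the authors' estimation.

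The members, marker and pathway lists were chosen with earlier results of these data known. Every member may be named. Full values were given for the 3 highest of each class, members at a mean TPM of 10 or more, those differing by 2 times between the pools at a mean TPM of at least 1, those with no count in a pool, those at a mean TPM of 0.5 to 2, and the 6 highest of each pathway list. Expected counts, rounded to whole numbers, were scaled with edgeR 4.0.16 (TMM) and DESeq2 1.42.0 (size factors) in R 4.3.3 as alternatives only, and that step was tested on simulated data. Tables were handled with pandas 2.3.3 and numpy 2.4.6 under Python 3.11.15, intervals came from scipy 1.17.1, and plots from matplotlib 3.10.9. Other thresholds, pseudocounts, scales, filters and single pools were tried.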

Additional observations from a re-analysis of the deposited data

How the results depend on the processing

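The 24 detected members became 9 at a TPM of 5 (35.9% of protein-coding genes) and 4 at a TPM of 10 (26.8%). At 1 CPM (counts scaled to the library) they were 38 (55.9%). In single pools they were 26 to 27. The members' median log2 ratio of -0.22 reversed to 0.45 on spike-in totals, where the median of all protein-coding genes was 0.60, and to 0.44 on those totals without a pseudocount, a setting added after the data were seen. It moved to -0.11 with TMM-scaled counts, -0.0432 with no filter on TPM and -0.00765 after the length-class median was taken off. It was -0.24 and -0.23 with pseudocounts of 0.1 and 0.5, -0.24 on mouse genes alone and -0.14 with DESeq2 size factors. The cause of these moves was not tested. A leading member over 50% was found in 8 classes with TPM and in each single pool, and in 10 with counts, where Sema4g (54.4%) and Plxna4 (63.6%) also passed it. By counts the leaders of the EphA, EphB and plexin B classes became Epha4 (34.2%), Ephb2 (44.5%) and Plxnb1 (54.2%). With complete coding transcripts alone there were 10 as well, with Sema4g at 56.1%, Plxna4 at 68.9% and Plxnb1 at 73.6%, and Ephb1 led its class with 36.8%. The 40 detected pathway genes of 62 became 26 at a TPM of 5 and 16 at a TPM of 10. The shares of protein-coding genes at those levels were 35.9% and 26.8%. In each single pool 43 pathway genes were detected. Counting complete coding transcripts alone moved 20 of 53 levels by more than the SD between the pools. No paired analysis was possible because both libraries belong to 1 group. The levels of 6 members rest on under 10 counts in each pool and are imprecise.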
